A study of Arabidopsis thaliana with 24 samples.

Results

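The 6 genes of cell wall remodelling and growth considered here were the pectate lyase genes *AT5G48900* and *AT1G04680*, the expansin gene *EXPA8*, the xyloglucan endotransglucosylase/hydrolase gene *XTH16*, the glycosyl hydrolase gene *GH9B13* and the beta-tubulin gene *TUB1*. They were read from 6 of the 22746 probe sets of the ATH1 array that are not controls, 1 probe set per gene, and all 6 were among the 72.7% of highest mean signal that were tested. The genes were chosen by their values in wild-type Col-0 and in *atl9*: a higher signal after chitin in Col-0, little change in *atl9* and, with chitin, a lower signal in the mutant. Those differences are therefore given as a description, with no test. The 3 genes *AT5G48900*, *AT1G04680* and *XTH16* were also on the study's own list of selected genes. The arrays of the second mutant, *rre2*, were not used in the choice as far as the sources show, which could not be checked. On that basis the response of *rre2* to chitin was tested. The fit also took its spread from the Col-0 arrays, which did enter the choice.

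The primary wall of a growing plant cell holds cellulose microfibrils in a matrix of xyloglucan and pectin, and it must be loosened for the cell to expand. Pectate lyases cleave de-esterified pectin, expansins loosen the contacts between cellulose and xyloglucan without cutting either, and xyloglucan endotransglucosylase/hydrolases cut and rejoin xyloglucan chains. Endoglucanases of glycosyl hydrolase family 9 act on glucan chains, and beta-tubulin is a subunit of the cortical microtubules along which cellulose synthase complexes move.

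Gene expression was measured in whole seedlings of *Arabidopsis thaliana* with 24 arrays, 4 biological replicates in each of 6 groups. The lines were Col-0, *atl9* (the labels' *rre1-1*, a T-DNA insertion in the RING-type ubiquitin ligase gene *ATL9*) and *rre2* (the labels' *rre2-1*, a T-DNA insertion in the related gene *ATL2*), with 1 insertion line for each mutant. Seedlings stayed 14 days in liquid culture, with about 500 seeds in a flask, and received either acid-hydrolysed crab-shell chitin at 100 mg/L or an equal volume of water (mock) for 30 min. Chitin is a polymer of fungal walls that plants sense as a sign of infection. A sample is thus a pool of many seedlings, and in such material fewer cells of a type and less RNA per cell cannot be told apart. The description field of the Col-0 chitin arrays says untreated while their titles and source names say chitin, which was followed. The targeted genes *ATL9* and *ATL2* were not analysed here, so the genotype labels were not checked against them.

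Signals are given as multiples of the median of all probe sets on the same array, and differences as log2. Since each probe set hybridises with its own efficiency, levels were compared between groups and not between genes. Array medians before scaling averaged between 174 and 179 in the mock groups and between 153 and 159 in the chitin groups. Each group had 2 arrays scanned on day 4 and 2 scanned on days 1 to 3. Within days 1 to 3 the groups were not balanced. Both *atl9* groups had days 2 and 3 and both *rre2* groups days 1 and 3. Col-0 mock had days 1 and 2 and Col-0 chitin days 1 and 3. There the Col-0 response and the comparisons of *atl9* and of mock *rre2* with Col-0 are partly mixed with scan day. Mock and chitin samples never shared a fluidics module, so module and treatment cannot be told apart. Of 12 shoot, 13 root and 15 reference names sought as markers, the annotation gave 4, 3 and 2 genes. These lists were chosen with earlier results of these data known. The 4 shoot genes found, *LHCB4.1*, *LHCB4.2*, *PSAN* and *RCA*, which serve photosynthesis, rose in Col-0 after chitin, against 11.4% of all probe sets. Their summed signal ran from 82.8 to 116 in Col-0 mock, from 159 to 197 in Col-0 chitin, from 92.0 to 175 in *atl9* chitin and from 73.9 to 111 in *rre2* chitin. None of the 4 passed in the response of *atl9* or of *rre2*. After chitin 0 of 4 passed between *atl9* and Col-0, where 7.05% of all probe sets were lower and 5.15% higher. In *rre2* 3 of 4 were lower than in Col-0, against 4.49% of all probe sets. All 4 had negative log2 differences from Col-0 in both mutants, with medians of -0.34 in *atl9* and -0.92 in *rre2*. Between the mutants after chitin 0 of 4 passed, and 4 had an unadjusted p under 0.05 by limma. The 3 root markers *AT5G66390*, *EXPA7* and *PYK10* had summed signals from 80.8 to 130 over all groups. None of them passed in the response of any line, and 1 of 3, *AT5G66390*, was lower in each mutant than in Col-0 after chitin. The reference genes *GAPC2* and *PEX4* passed in none of the comparisons. The part of these tissue markers in the results below was not tested.

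The signal of *AT5G48900* in Col-0 was 4.12, 2.94, 2.08 and 2.68 times the array median in the 4 mock samples and 5.41, 6.46, 7.43 and 5.88 in the 4 chitin samples. For *atl9* it was 2.12, 1.95, 2.77 and 2.53 in mock and 1.69, 2.43, 2.09 and 2.52 after chitin. For *rre2* it was 1.60, 1.81, 1.98 and 1.74 in mock and 3.30, 2.87, 1.39 and 1.87 after chitin. All 4 chitin-treated Col-0 samples lay above each of the other 20 samples, and the *atl9* mock and chitin samples occupied the same range. The means were 2.96 ± 0.86 (SD, n = 4) and 6.30 ± 0.87 in Col-0 without and with chitin, 2.34 ± 0.37 and 2.18 ± 0.38 in *atl9*, and 1.78 ± 0.16 and 2.36 ± 0.88 in *rre2*.

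*AT1G04680*, the other pectate lyase gene, had signals of 5.69, 4.44, 3.99 and 4.78 in Col-0 mock and of 9.36, 11.4, 10.4 and 10.6 in Col-0 chitin. In *atl9* the mock samples gave 5.14, 4.56, 5.02 and 6.21 and the chitin samples 3.96, 6.53, 4.88 and 5.07. In *rre2* they gave 3.98, 3.37, 2.88 and 3.69 without chitin and 6.47, 5.53, 2.92 and 4.18 with it. Here too the 4 chitin-treated Col-0 samples stood above the other 20, the highest of which reached 6.53. All 4 *rre2* mock samples were below the lowest Col-0 mock sample and below the lowest *atl9* mock sample, and 3 of the 4 *rre2* chitin samples were above every *rre2* mock sample. Mean signals were 4.72 ± 0.72 and 10.4 ± 0.8 in Col-0, 5.23 ± 0.70 and 5.11 ± 1.07 in *atl9*, and 3.48 ± 0.47 and 4.77 ± 1.55 in *rre2* (mock and chitin, SD, n = 4).

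*EXPA8* encodes an alpha-expansin, one of the proteins that loosen the wall at acidic pH. Its signal in Col-0 was 3.55, 2.05, 1.56 and 2.15 in mock and 5.29, 3.23, 5.11 and 3.54 after chitin. In *atl9* the values were 1.59, 1.24, 2.35 and 1.52 in mock and 0.843, 2.45, 1.25 and 1.30 after chitin. The *rre2* samples had 1.39, 1.22, 1.04 and 1.01 in mock and 3.71, 1.28, 0.588 and 1.06 after chitin. *EXPA8* was the only one of the 6 genes whose Col-0 groups overlapped, through Col-0 mock replicate 1, and its *rre2* chitin group held both a high sample, replicate 1, and the lowest value of all 24 samples, replicate 3. Only 2 of the 4 chitin-treated Col-0 samples were above all others. The means were 2.33 ± 0.85 and 4.29 ± 1.06 in Col-0, 1.67 ± 0.48 and 1.46 ± 0.69 in *atl9*, and 1.17 ± 0.18 and 1.66 ± 1.40 in *rre2*.

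Among the genes for xyloglucan turnover, *XTH16* had mock signals of 1.68, 1.74, 1.71 and 1.84 in Col-0, the narrowest of its groups, and chitin signals of 3.31, 2.90, 3.01 and 3.57. The *atl9* samples gave 1.40, 1.43, 1.50 and 0.629 in mock and 1.21, 1.53, 1.25 and 2.08 after chitin. The *rre2* samples gave 1.62, 1.69, 0.983 and 0.970 in mock and 1.75, 1.15, 1.37 and 2.05 after chitin. All chitin-treated Col-0 samples were above the highest of the other 20, which was 2.08, and every *atl9* mock sample was below every Col-0 mock sample, with replicate 4 far below the other 3. Means were 1.74 ± 0.07 and 3.20 ± 0.30 in Col-0, 1.24 ± 0.41 and 1.52 ± 0.40 in *atl9*, and 1.32 ± 0.39 and 1.58 ± 0.40 in *rre2*.

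*GH9B13*, a member of glycosyl hydrolase family 9, gave 1.02, 0.570, 1.14 and 1.23 in Col-0 mock and 2.02, 2.83, 2.50 and 2.87 in Col-0 chitin. Its *atl9* signals were 0.963, 0.789, 0.478 and 0.902 in mock and 0.581, 1.07, 0.660 and 0.521 after chitin. Its *rre2* signals were 0.686, 0.541, 0.715 and 0.818 in mock and 1.53, 0.937, 0.558 and 0.602 after chitin. The lowest chitin-treated Col-0 sample was above the highest sample of any other group, 1.53 in *rre2* chitin replicate 1, while the remaining groups overlapped. The Col-0 means were 0.989 ± 0.291 and 2.55 ± 0.39, those of *atl9* 0.783 ± 0.216 and 0.708 ± 0.247, and those of *rre2* 0.690 ± 0.115 and 0.906 ± 0.448.

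For *TUB1* the Col-0 signals were 3.48, 2.66, 2.43 and 3.44 in mock and 6.0, 7.56, 6.74 and 6.92 after chitin. Those of *atl9* were 2.59, 2.78, 2.59 and 2.91 in mock and 2.37, 3.17, 2.58 and 2.38 after chitin. Those of *rre2* were 2.86, 2.57, 2.68 and 2.73 in mock and 3.42, 2.55, 1.90 and 2.03 after chitin. The 20 samples other than chitin-treated Col-0 all lay at or below 3.48, and the *rre2* chitin samples reached both above and below the narrow range of *rre2* mock. *TUB1* means were 3.01 ± 0.54 and 6.81 ± 0.64 in Col-0, 2.72 ± 0.16 and 2.62 ± 0.38 in *atl9*, and 2.71 ± 0.12 and 2.47 ± 0.69 in *rre2*.

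**Figure D1:**
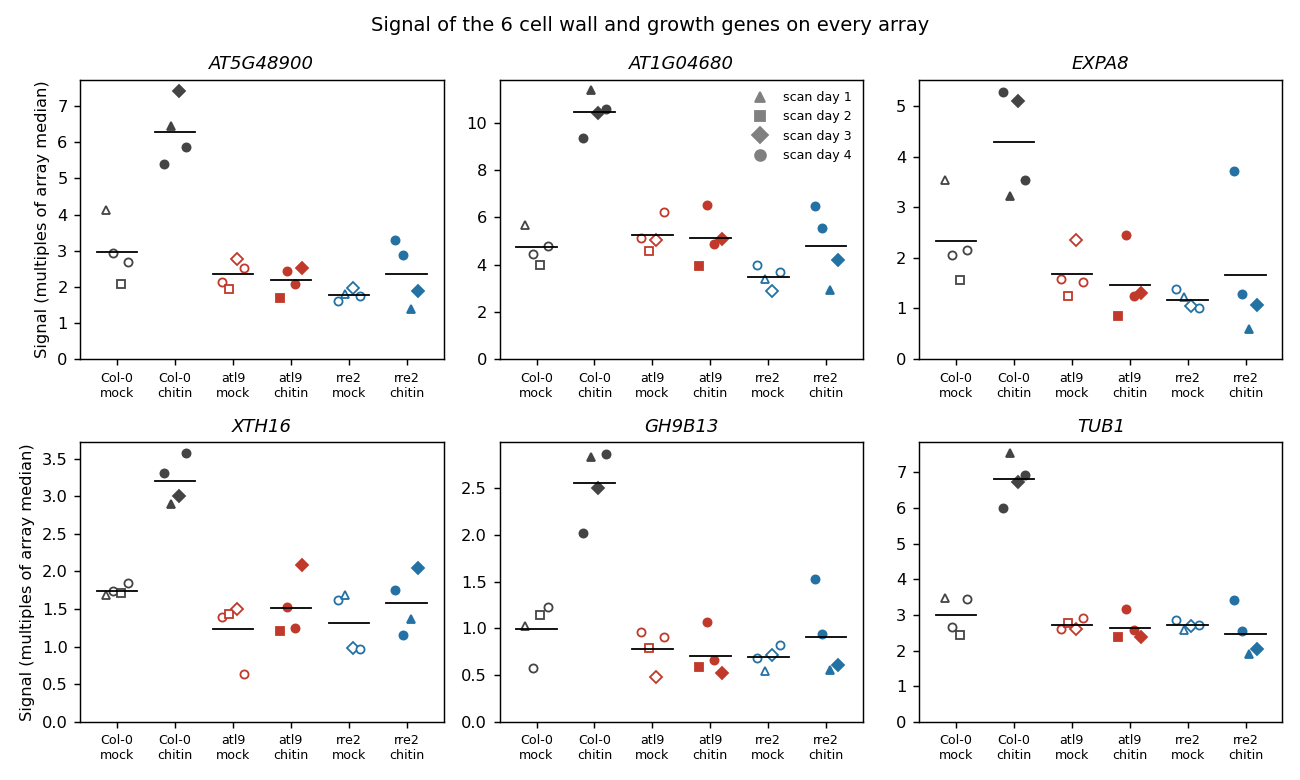
Signal of each of the 6 genes on all 24 arrays, as a multiple of the array's median (linear axis from 0), by line and treatment; open symbols are mock, filled symbols chitin, the symbol's shape gives the scan day and the bar is the mean of 4 samples. For 5 of the 6 genes the 4 chitin-treated Col-0 samples lie above all other 20 samples, and for *EXPA8* 2 of 4 do.

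When the groups of each gene were ordered by mean log2 signal, chitin-treated Col-0 came first for all 6 genes. It did not overlap with the group in second place for 5 of them, and overlapped for *EXPA8*. Below the first place, every pair of neighbouring groups overlapped in each of the 6 genes. Differences between neighbours were not tested, and nothing is read from their order. Col-0 mock was second for 5 genes, and for *AT1G04680* it followed both *atl9* groups.

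In Col-0, chitin went with signals 1.83-fold (*XTH16*) to 2.67-fold (*GH9B13*) higher than mock. The log2 differences were 1.12 (SE 0.19) for *AT5G48900*, 1.15 (SE 0.15) for *AT1G04680* and 1.19 (SE 0.14) for *TUB1*. They were 1.41 (SE 0.28) for *GH9B13*, 0.91 (SE 0.31) for *EXPA8* and 0.87 (SE 0.24) for *XTH16*. The Col-0 groups did not overlap for 5 of the 6 genes, where 14.2% of all probe sets tested had all chitin samples above all mock samples, but these values chose the genes and nothing is read from the count. The median of the 6 genes was 1.14 and that of all probe sets 0.05. On scan day 1, where Col-0 had 1 sample of each treatment, *EXPA8* was -0.14 and the other 5 genes lay between 0.65 and 1.47, while on day 4 all 6 lay between 0.94 and 1.53.

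In *atl9* the same differences were -0.10 for *AT5G48900*, -0.05 for *AT1G04680*, -0.27 for *EXPA8*, 0.34 for *XTH16*, -0.15 for *GH9B13* and -0.06 for *TUB1*, with the standard errors of Col-0 since both lines shared a fit. None of the 6 genes had non-overlapping groups in *atl9*, where 9.77% of all probe sets had every chitin sample above every mock sample and 5.32% every chitin sample below. The difference between the responses of *atl9* and Col-0, part of the same choice, had a median of -1.21 over the 6 genes and ran from -1.57 for *GH9B13* to -0.53 for *XTH16*.

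After chitin the 6 genes had a lower signal in *atl9* than in Col-0 by 2.07-fold (*AT1G04680*) to 3.72-fold (*GH9B13*). The log2 differences were -1.53 for *AT5G48900*, -1.05 for *AT1G04680*, -1.63 for *EXPA8*, -1.10 for *XTH16*, -1.90 for *GH9B13* and -1.38 for *TUB1*. The groups did not overlap for any of the 6, against 10.5% of all probe sets in this direction, a count that the choice of genes fixed. The chitin-treated Col-0 samples of this comparison were also those of the Col-0 response.

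The response of *rre2* was tested with limma in the 16 arrays of Col-0 and *rre2*, with Benjamini-Hochberg adjustment over all probe sets tested, and 0 of the 6 genes passed an adjusted p of 0.05. By the same test 8.29% of all probe sets rose in *rre2* and 3.82% fell. At an unadjusted p of 0.05, 0 of the 6 passed, and 0 passed with a linear model without moderated variance. The log2 difference was 0.40 for *AT1G04680* (SE 0.20, 95% interval -0.03 to 0.84, adjusted p = 0.254) and 0.32 for *AT5G48900* (SE 0.25, interval -0.20 to 0.85, adjusted p = 0.501). For the genes acting on glucans, *GH9B13* had 0.29 (SE 0.29, interval -0.34 to 0.91, adjusted p = 0.644) and *XTH16* 0.28 (SE 0.20, interval -0.15 to 0.71, adjusted p = 0.477). *EXPA8* had 0.18 (SE 0.41, interval -0.69 to 1.05, adjusted p = 0.859). *TUB1* was the only one of the 6 with a negative value, -0.17 (SE 0.17, interval -0.54 to 0.20, adjusted p = 0.640). The difference between the responses of *rre2* and Col-0 had a median of -0.77 over the 6 genes and was not tested, since its Col-0 part was used in the choice.

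**Figure D2:**
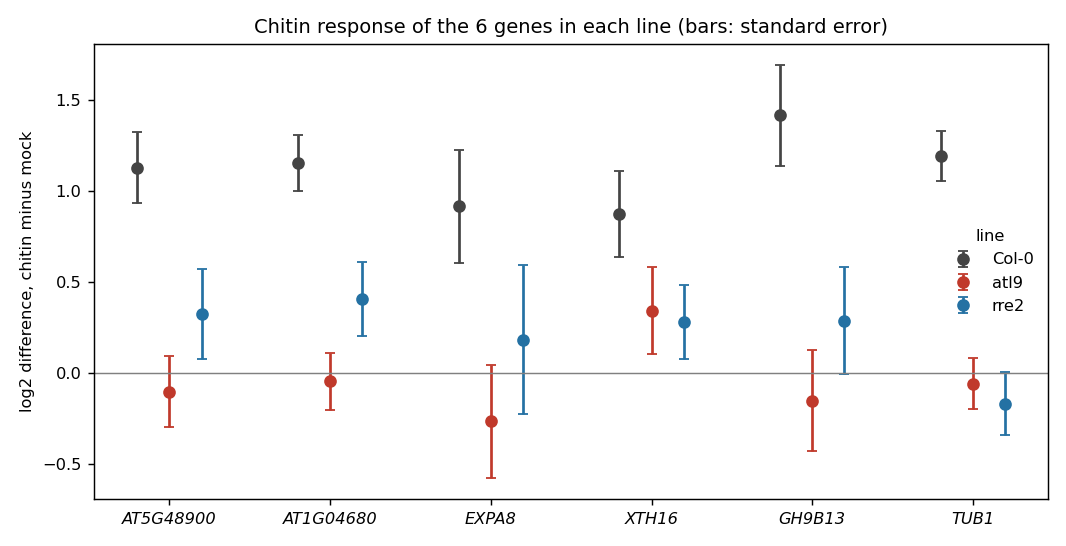
Log2 difference between chitin and mock for each of the 6 genes in Col-0, *atl9* and *rre2*, with bars of 1 standard error; n = 4 samples per group. The Col-0 values lie between 0.87 and 1.41, those of *atl9* between -0.27 and 0.34 and those of *rre2* between -0.17 and 0.40.

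The result in *rre2* rested on samples that disagreed. Replicate 1 of *rre2* chitin was the highest of its group for 5 of the 6 genes and replicate 3 the lowest for 5. Without replicate 3, *AT1G04680* passed, with 0.62 (adjusted p = 0.0255). Without replicate 1, *EXPA8* turned to -0.32 and *GH9B13* to -0.01, and neither passed. In the arrays of scan day 4 alone, chosen as an alternative after the data had been seen, all 6 differences were positive, with a median of 0.66, and *AT5G48900* passed with 0.88 (adjusted p = 0.0329). In the arrays of scan days 1 to 3 alone the median was -0.17, with 4 of the 6 negative. With scan day as a block in the fit 0 of the 6 passed and the median stayed at 0.28. The values also moved with scaling, since the median of all probe sets in *rre2* went from 0.00 to -0.17 in the values as deposited, where the median of the 6 genes was 0.10.

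After chitin, the log2 difference of *rre2* from Col-0 was -1.49 for *AT5G48900*, -1.19 for *AT1G04680*, -1.68 for *EXPA8*, -1.05 for *XTH16*, -1.60 for *GH9B13* and -1.49 for *TUB1*. The groups did not overlap for 5 of the 6 genes, against 8.68% of all probe sets in this direction, and the overlap of *EXPA8* came from *rre2* chitin replicate 1. These differences share the chitin-treated Col-0 samples with the choice of the genes and were not tested. Their median was -1.49, and it was -0.998 in the arrays of scan day 4 alone and -1.99 in those of scan days 1 to 3.

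Set beside each other after chitin, the mutants overlapped for all 6 genes, where 3.09% of all probe sets were higher and 2.16% lower in *rre2* without overlap, with *rre2* minus *atl9* between -0.14 (*AT1G04680*) and 0.29 (*GH9B13*). In mock samples the median difference from Col-0 was -0.47 in *rre2* and -0.32 in *atl9*. In *rre2* they ran from -0.94 for *EXPA8* to -0.13 for *TUB1*, and the groups did not overlap for 3 genes, *AT5G48900*, *EXPA8* and *AT1G04680*, against 1.34% of all probe sets in this direction. In *atl9* they ran from -0.57 for *XTH16* to 0.15 for *AT1G04680*, with 1 gene, *XTH16*, not overlapping, against 2.71% of all probe sets. Between the mutants in mock, *AT1G04680* was lower in *rre2* with no overlap, 1 of 6 genes against 0.92% of all probe sets. The Col-0 and *atl9* mock samples entered the choice of the genes, so no test was made.

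Apart from *XTH16*, the genes varied together from sample to sample within groups. Over all 24 arrays the correlation (Pearson's r of log2 signals) of the 15 pairs of genes ran from 0.61 to 0.92, with a median of 0.83, which includes the pattern by which the genes were chosen. With the mean of each group removed, 11 of the 15 pairs remained positive, with a median of 0.63. The closest pair was then *TUB1* and *AT1G04680* at 0.84, followed by *AT5G48900* with *EXPA8* and with *AT1G04680*, both at 0.78. *XTH16* stood apart, since its r with *EXPA8* was 0.25 and with the other 4 genes between -0.23 and -0.02. All points of a pair share an array and its scaling, and these values are a description.

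The mean of the 6 genes on each array, with each gene centred on its mean over the 24 arrays, lay between 1.08 and 1.23 in chitin-treated Col-0. The next highest values were 0.44 in *rre2* chitin replicate 1 and 0.34 in Col-0 mock replicate 1. The lowest was -0.85 in *rre2* chitin replicate 3, followed by -0.61 in *atl9* chitin replicate 1, so that the chitin-treated mutant samples were spread more widely than the mock samples of the same lines, which lay between -0.30 and -0.16 in *atl9* and between -0.57 and -0.34 in *rre2*. Samples sharing a scan day were close in some groups and apart in others. The *rre2* chitin samples of day 4 had 0.44 and -0.18, above the -0.85 and -0.42 of days 1 and 3, while the *atl9* chitin samples of day 4 had 0.13 and -0.35.

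**Figure D3:**
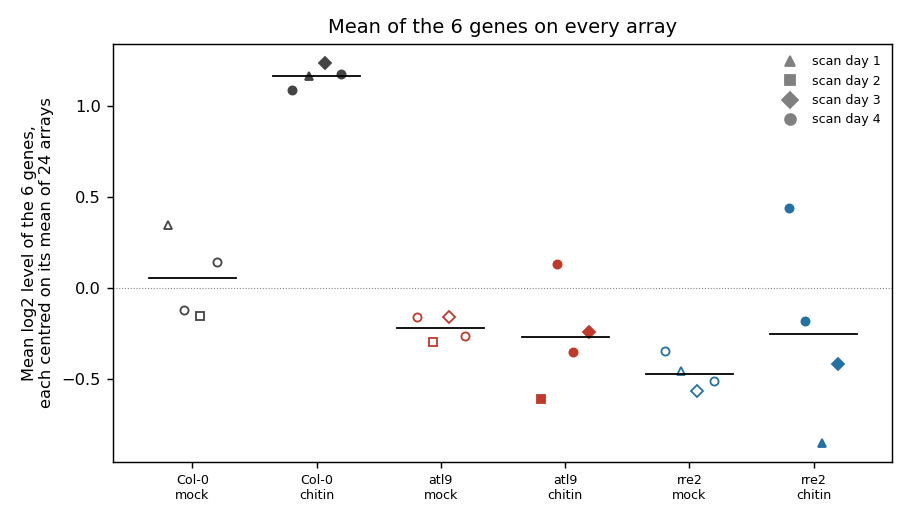
Mean log2 signal of the 6 genes on each array, every gene centred on its mean over the 24 arrays, by line and treatment, with the symbol's shape giving the scan day and the bar the group mean. The 4 chitin-treated Col-0 samples lie between 1.08 and 1.23, and the *rre2* chitin samples spread from -0.85 to 0.44.

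Other genes of the families of the 6 genes, together with pectin methylesterase genes and *COB*, were then read by gene symbol or, for pectate lyases, by a list of locus codes drawn from background knowledge. The annotation left 8730 probe sets unlisted, so these lists do not hold every gene of a family. Among the probe sets tested were 12 pectate lyase genes, 13 expansin genes, 8 *XTH* genes, 8 genes of glycosyl hydrolase family 9, 6 tubulin genes, 4 pectin methylesterase genes and *COB*, which makes 52 genes, none of them on the study's list of selected genes. The lists mostly follow the families of the 6 genes and were chosen with earlier results of these data known. Their counts in Col-0 and against Col-0 are therefore not independent of that choice. In Col-0 after chitin 20 of the 52 rose and 0 fell by limma, with 11.4% of all probe sets rising and 5.57% falling. The median over the 52 genes was 0.49, and 28 of them had an unadjusted p under 0.05 in either direction. In *atl9* 2 of 52 rose and 0 fell, against 7.57% and 2.99% of all probe sets, with a median of -0.06 and 6 genes at an unadjusted p under 0.05. In *rre2* 6 of 52 rose and 0 fell, against 8.29% and 3.82% of all probe sets, with a median of 0.12 and 10 genes at an unadjusted p under 0.05.

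Scaling bore on the direction of these counts. In the values as deposited 14 rose and 0 fell in Col-0, 2 rose and 4 fell in *atl9*, and 5 rose and 1 fell in *rre2*, and with quantile normalization the numbers were 16 and 1, 2 and 5, and 6 and 1. Of all probe sets 7.03% rose and 15.3% fell in Col-0 in the values as deposited, 6.08% and 10.1% in *atl9*, and 6.74% and 12.7% in *rre2*. With quantile normalization these shares were 8.33% and 9.46%, 6.85% and 6.84%, and 7.55% and 7.88%. A linear model without moderated variance gave 19 and 0, 2 and 0, and 6 and 0. In the arrays of scan day 4 alone and of scan days 1 to 3 alone, which hold 2 samples per group, 7 and 8 genes rose in Col-0. The share of all probe sets rising in Col-0 in these subsets is not given.

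By family, the rises in Col-0 covered 5 of 12 pectate lyase genes, 4 of 13 expansin genes, 4 of 8 *XTH* genes, 3 of 8 genes of family 9, 2 of 6 tubulin genes, 1 of 4 pectin methylesterase genes and *COB*. The pectate lyase gene *AT3G07010* had 0.97 (adjusted p = 1.60e-04), with signals of 2.84 ± 0.40 in mock and 5.57 ± 0.78 after chitin. *TUB5* had 0.67 (adjusted p = 0.00199), *TUB6* 0.56 (adjusted p = 0.0141) and *GH9B7* 0.73 (adjusted p = 0.00587). *COB*, whose protein orients cellulose deposition in elongating root cells, had 0.50 (adjusted p = 0.00283). None of these 5 genes passed in *atl9* or in *rre2*. The call of *TUB6* in Col-0 was lost in the values as deposited and with quantile normalization, and that of *COB* with quantile normalization. Among these 5 genes, 4 lost their call in Col-0 both in scan day 4 alone and in scan days 1 to 3 alone. They were *TUB5* (adjusted p = 0.0786 and 0.0912), *GH9B7* (0.0642 and 0.0595), *TUB6* (0.255 and 0.0786) and *COB* (0.111 and 0.146). The call of *AT3G07010* held in both.

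A few of the 52 genes rose in the mutants too. *XTH18* rose by a log2 difference of 2.16 in Col-0, 2.03 in *atl9* (adjusted p = 9.62e-06) and 2.86 in *rre2* (adjusted p = 1.29e-07). The expansin-like gene *EXLA3* had 1.68, 1.62 (adjusted p = 1.76e-05) and 1.77 (adjusted p = 4.82e-06) in the same lines. These were the 2 genes that rose in *atl9*, and the calls in all 3 lines held under each of the alternatives in which they were tested. In *rre2* *XTH19* (1.55, adjusted p = 6.58e-06), *XTH20* (1.08, adjusted p = 0.00688), *GH9C3* (2.24, adjusted p = 0.00521) and *EXLA2* (0.78, adjusted p = 0.0180) rose as well. The calls of *GH9C3*, a gene of low signal (mean log2 -1.88), and of *XTH20* were lost in scan days 1 to 3 alone (adjusted p = 0.298 and 0.189). That of *EXLA2* was lost in the values as deposited (adjusted p = 0.0833), with all 24 arrays in the fit (0.0771), in scan day 4 alone (0.444), and without *rre2* mock replicate 2 or *rre2* chitin replicate 1. All 12 pectate lyase genes, all 6 tubulin genes and all 4 pectin methylesterase genes failed the test in *rre2*, with family medians of 0.10, 0.07 and 0.10.

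**Figure D4:**
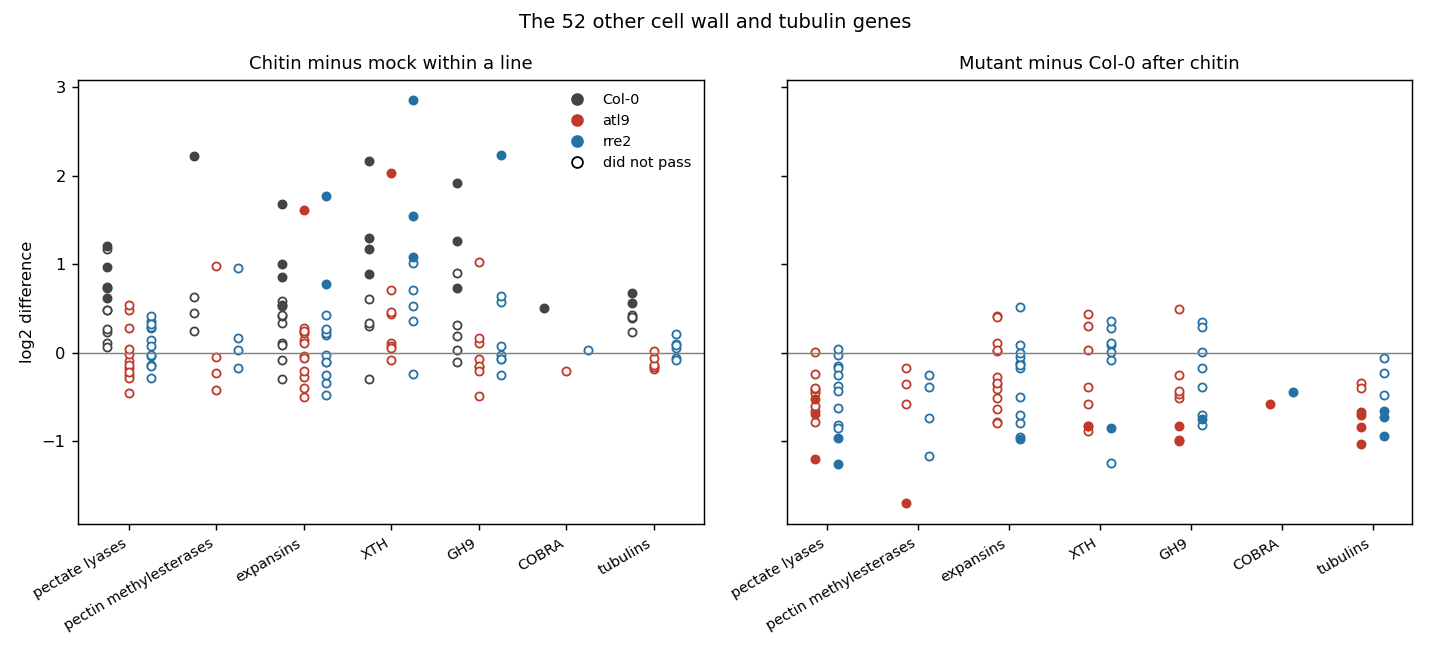
Log2 differences of the 52 other cell wall and tubulin genes, 1 symbol per gene, for chitin minus mock in each line (left) and for each mutant minus Col-0 after chitin (right); filled symbols passed an adjusted p of 0.05 by limma. In Col-0 20 of 52 rose, in *atl9* 2 and in *rre2* 6, and after chitin 13 were lower in *atl9* and 9 in *rre2* than in Col-0.

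After chitin the signal of 13 of the 52 genes was lower in *atl9* and that of 0 higher, both relative to Col-0, against 7.05% and 5.15% of all probe sets, with a median of -0.46 and 28 genes at an unadjusted p under 0.05. In *rre2* 9 were lower and 0 higher, against 4.49% and 2.84%, with a median of -0.32 and 21 genes at an unadjusted p under 0.05. Both comparisons use the same chitin-treated Col-0 samples, which also entered the choice of the genes whose families were read. The first count was 22 without *atl9* chitin replicate 2 and the second 16 without *rre2* chitin replicate 1, and both were 0 in the arrays of scan day 4 alone.

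The tubulin genes made up 4 of the 13 and 3 of the 9. *TUB5* was -1.03 in *atl9* (adjusted p = 4.34e-04) and -0.95 in *rre2* (adjusted p = 0.00730), and *TUB6* was -0.84 (adjusted p = 0.00268) and -0.73 (adjusted p = 0.00445). *TUB7* was -0.67 and -0.66 (adjusted p = 0.00802 and 0.00928), and the alpha-tubulin gene *TUA6* was -0.71 in *atl9* (adjusted p = 0.00698) and -0.48 in *rre2*, where it did not pass. Of the pectate lyase genes 3 of 12 were lower in *atl9* and 2 of 12 in *rre2*. *AT3G07010* had -1.21 and -1.26 (adjusted p = 2.81e-04 and 0.00493), and *AT1G67750* had -0.70 and -0.97 (adjusted p = 0.00616 and 0.00950). By limma in scan days 1 to 3 alone, *AT1G67750* lost its call in *atl9* (adjusted p = 0.189) and in *rre2* (0.117). So did *TUA6* in *atl9* (0.0688) and *TUB5* in *rre2* (0.0549). *AT3G53190* passed in *atl9* with -0.52 (adjusted p = 0.0302), and lost its call with scan day as a block (-0.50, adjusted p = 0.0715), with no filter (0.0539), with all 24 arrays in the fit (0.0804), in either scan-day subset, and without *atl9* chitin replicate 1 or 4 or Col-0 chitin replicate 1 or 4.

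Of the genes that act on glucans and xyloglucan, *GH9B7* was lower by -0.83 in *atl9* and -0.76 in *rre2* (adjusted p = 0.00536 and 0.00915) and *GH9C2* by -0.98 in *atl9* (adjusted p = 0.0152). *XTH32* was -0.83 and -0.86 (adjusted p = 0.0127 and 0.0475), and *XTH33* was -0.83 in *atl9* (adjusted p = 0.0286). The call of *XTH32* in *rre2* held under 8 of 27 alternatives, and was lost with no filter (adjusted p = 0.0891), with quantile normalization (0.0595), in the values as deposited (0.0512), with scan day as a block (0.0558), without moderated variance (0.0760), in either scan-day subset and when most single samples were left out. That of *XTH33* was lost with no filter (adjusted p = 0.0561), with the replicate block (0.0512), with scan day as a block (0.0553), with all 24 arrays in the fit (0.250), in either scan-day subset, and without *atl9* chitin replicate 1 or 3 or Col-0 chitin replicate 2, 3 or 4. *COB* was -0.58 in *atl9* (adjusted p = 0.00291) and -0.44 in *rre2* (adjusted p = 0.0284), the latter lost without Col-0 chitin replicate 1, 3 or 4 or *rre2* chitin replicate 2 or 3. By limma in scan days 1 to 3 alone, *COB* lost its call in *atl9* (adjusted p = 0.0759) and in *rre2* (0.319), and *XTH32* in *atl9* (0.210). The pectin methylesterase gene *ATPMEPCRD* had the most negative value in *atl9*, -1.71 (adjusted p = 0.0180), lost with scan day as a block (-1.57, adjusted p = 0.0607), in scan day 4 alone (-1.37, adjusted p = 0.284), and without *atl9* chitin replicate 1, 3 or 4 or Col-0 chitin replicate 4. Among the 13 expansin genes none passed in *atl9* and 1, *EXLA2*, passed in *rre2* (-0.98, adjusted p = 0.0103).

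In mock samples 0 of the 52 genes passed between *atl9* and Col-0 or between *rre2* and Col-0, with limma and with the linear model without moderated variance, while 10 and 5 had an unadjusted p under 0.05. Of all probe sets 0.00605% passed in *atl9* and 0 in *rre2*. For the difference between the responses of *atl9* and Col-0 1 of 52 genes passed, *COB* with -0.72 (adjusted p = 0.0440), against 0.454% of all probe sets in either direction, and 20 had an unadjusted p under 0.05. That count was 0 with no filter, with the replicate block, with scan day as a block, in either scan-day subset, and when any 1 of 13 of the 16 arrays was left out. For *rre2* 0 passed with limma and with the linear model, against 0.151%, and 14 had an unadjusted p under 0.05. Apart from *COB* in *atl9*, an effect past the threshold in Col-0 and not in a mutant was thus not shown to differ between the lines.

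Of 9000 other probe sets with 1 annotated gene, those whose signals followed the mean of the 6 genes most closely over the 24 arrays were *AT4G25260* (r = 0.947), *AT4G32460* (r = 0.945), *AT3G07010* (r = 0.943), *AT1G66940* (r = 0.936) and *TUB5* (r = 0.933). They were followed by *AT4G18970*, *AT1G62480*, *AT1G09750*, *AT3G12710* and *GH9B7*, with r from 0.921 down to 0.904. Among the 10, *AT3G07010*, *TUB5* and *GH9B7* belonged to the 52 other family genes, all of which were among the 9000 compared. The rest of the 10 were not on those lists, and whether the share exceeds that of the 9000 was not tested. All 10 had their highest group mean in chitin-treated Col-0. The mean of the 6 genes was itself highest there by their choice, so this follows from the ranking and nothing is read from it. The mean log2 signal of *AT4G25260* was 2.46 there and between 0.95 and 1.56 in the other 5 groups.

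Taken gene by gene, *AT4G25260* was also closest to *AT5G48900* (r = 0.942) and to *TUB1* (r = 0.941). The closest gene was *AT1G29670* for *AT1G04680* (r = 0.914), *AT4G18970* for *EXPA8* (r = 0.933) and *AT1G14220* for *GH9B13* (r = 0.940). *XTH16* had no neighbour as close, its nearest being *SCPL34* (r = 0.860) and *AT4G25370* (r = 0.828). These values describe likeness over shared arrays.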

How the data were processed

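Whole-seedling RNA was hybridised to ATH1 arrays, 24 in all. The authors deposited linear intensities from GCOS 1.1, scaled by array to a target of 500. The paper's fold changes were not used, and neither were detection calls. Each value was divided by the median of the 22746 probe sets that are not controls on its array and converted to log2, and the 16530 probe sets of highest mean were tested. Group means were fitted with limma 3.58.1 (R 4.3.3) in 16 arrays at a time, Col-0 with 1 mutant, with p-values adjusted by the Benjamini-Hochberg method (threshold 0.05). Mutants were compared in all 24. The number of arrays limits the precision.

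Gene names came from the platform annotation (13513 probe sets with 1 gene, 503 with several, 8730 unlisted), updated through RefSeq. The members and lists were chosen with earlier results of these data known. Named in each family were the 3 genes of smallest adjusted p in the *rre2* response and the 3 that differed most in *atl9* after chitin; other names were chosen after their values were seen. The procedure was tested on simulated data. With group means removed, same-numbered replicates of different groups had a mean r of 0.01 over 60 pairs, 16 of them above 0.1. Samples were treated as unpaired. Arrays of different groups that shared a scan day had a mean r of 0.087 over 79 pairs, 37 of them above 0.1. For different scan days it was -0.042 over 161 pairs, 24 of them above 0.1. The main fit held no term for scan day.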

Additional observations from a re-analysis of the deposited data

Results flagged for a closer look

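Among the 36 groups of 4 samples formed by the 6 genes, 1 held a sample far from the others: *XTH16* in *atl9* mock replicate 4 had a signal of 0.629, against 1.40, 1.43 and 1.50 in the other 3. Its gap to the nearest was 0.918 of the group's range, above the critical value of Dixon's test for 4 samples, and chance alone gives such a sample in about 1 group in 20. For *COB*, 1 of the 52 other cell wall and tubulin genes, the response of *atl9* minus that of Col-0 was -0.72 (limma, adjusted p = 0.0440). No gene of the 52 passed with no filter, with the replicate block, with scan day as a block, in either scan-day subset, or when any 1 of 13 of the 16 arrays was left out.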

How the results depend on the processing

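In the response of *rre2*, 0 of the 6 genes passed, and 1 passed in the arrays of scan day 4 alone and without 1 of the 16 arrays (0 to 1 over all arrays left out). Signs turned for *AT5G48900* (-0.24), *GH9B13* (-0.10) and *EXPA8* (-0.52) in scan days 1 to 3 alone, for *TUB1* (0.078) in scan day 4 alone, and without *rre2* chitin replicate 1 for *GH9B13* (-0.0053, range over arrays left out to 0.48) and *EXPA8* (-0.32, range to 0.57). Over all probe sets 1370 rose and 631 fell in *rre2*. The falls were 2105 in the values as deposited (1114 rises) and 1302 with quantile normalization (1248 rises), 781 rose and 155 fell on scan day 4 alone and 812 and 211 on days 1 to 3, and leaving out single arrays gave 1202 to 1416 rises and 447 to 707 falls. The 2 scan-day subsets, added after the data were seen, hold 2 arrays per group.

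For the 52 other genes, rises in Col-0 (20) were 7 on day 4 and 8 on days 1 to 3, and 1 fell with quantile normalization. In *atl9* 1 rose under the stricter filter, and 4, 5 and 2 fell in the values as deposited, with quantile normalization and on days 1 to 3. In *rre2* 1 fell in the values as deposited and 1 with quantile normalization. Genes lower after chitin were 0 on day 4 in *atl9* and in *rre2*. For these counts in the scan-day subsets the share of all probe sets is not given. With single arrays left out the ranges were 16 to 21 rises in Col-0, 0 to 2 falls in *atl9*, 10 to 22 lower in *atl9* and 7 to 16 lower in *rre2*. The count of 1 gene whose responses differed between *atl9* and Col-0 was 2 as deposited, 3 with an offset of 32, 4 with the stricter filter, 0 with no filter, with the replicate block, with scan day as a block and in either scan-day subset, and 0 to 4 with arrays left out; for *rre2* it was 0 to 1. Beyond that call, the replicate block lost only *XTH33* in *atl9* after chitin (adjusted p = 0.0512) among the named results. Other causes were not tested.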
